A study of Mus musculus with 4 samples.

Results

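The genes described here encode the extracellular matrix and its integrin receptors: collagens, laminin chains, the matrix glycoproteins *Fn1*, *Nid1*, *Nid2*, *Hspg2*, *Sparc* and *Vtn*, and the integrin alpha and beta subunits. They were picked by a rule on their symbols and make up 81 of the 19645 features measured. Of the 81, 59 are matrix genes, 21 are integrin subunits, and 1, *Col4a3bp*, encodes a ceramide transfer protein whose symbol matches the collagen pattern. The 81 features carry 80 symbols because *Col2a1* is listed as a pair of features with the same coordinates.

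RNA was sequenced from mouse embryonic stem cells (ESCs), 2 libraries of *Bmal1* wild type (WT) cells and 2 of a *Bmal1* knockout (KO). The KO was made with CRISPR-Cas9 and is a single clone with a small frameshift deletion in the exon of *Arntl* that holds the start codon. Both genotypes were grown on gelatin-coated plates in medium with serum and leukaemia inhibitory factor (LIF), a cytokine that keeps ESCs undifferentiated. The study calls the libraries biological replicates, and the labels name no separate cultures, so the p-values measure only the spread between these libraries, and an effect of the genotype cannot be told apart from other differences of this clone from its control.

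Laminins are trimers of an alpha, a beta and a gamma chain, and together with type IV collagen, the nidogens and perlecan they build the basement membrane, the first matrix that the embryo lays down. Integrins are pairs of an alpha and a beta subunit that span the cell membrane, and the alpha subunit largely sets which matrix protein the pair binds. BMAL1, encoded by *Arntl*, pairs with CLOCK and binds E-boxes, short DNA sites of the form CANNTG and above all CACGTG.

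The promoters of 4 members are shown as the 250 bases before the gene start. Of these members, 1 is the collagen VI gene that passed the test and the 2-fold limit. The others are its neighbour, which was too low to test, the laminin beta chain that fell and the integrin beta chain that fell. The sequences are from RefSeq (GRCm38.p6), 5′ to 3′ on the strand of the gene, with each CANNTG in capitals. They lie at chr9:106096692-106096941 (minus strand, *Col6a4*), chr9:105960644-105960893 (minus strand, *Col6a5*), chr12:31265043-31265292 (plus strand, *Lamb1*) and chr15:102231936-102232185 (minus strand, *Itgb7*).
Col6a4: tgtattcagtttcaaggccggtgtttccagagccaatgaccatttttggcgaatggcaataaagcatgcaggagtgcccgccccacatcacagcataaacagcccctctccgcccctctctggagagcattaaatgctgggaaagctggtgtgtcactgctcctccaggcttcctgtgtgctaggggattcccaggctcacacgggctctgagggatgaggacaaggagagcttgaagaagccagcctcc
Col6a5: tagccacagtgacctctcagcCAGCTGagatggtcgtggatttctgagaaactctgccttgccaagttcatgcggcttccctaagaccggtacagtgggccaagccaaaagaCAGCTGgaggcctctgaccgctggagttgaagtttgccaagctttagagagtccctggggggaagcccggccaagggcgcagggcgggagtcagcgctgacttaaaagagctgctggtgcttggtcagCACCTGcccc
Lamb1: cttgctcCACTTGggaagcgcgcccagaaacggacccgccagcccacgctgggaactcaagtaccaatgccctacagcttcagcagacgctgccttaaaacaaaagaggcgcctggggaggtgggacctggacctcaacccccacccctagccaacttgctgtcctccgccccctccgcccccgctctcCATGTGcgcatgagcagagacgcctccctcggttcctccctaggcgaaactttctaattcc
Itgb7: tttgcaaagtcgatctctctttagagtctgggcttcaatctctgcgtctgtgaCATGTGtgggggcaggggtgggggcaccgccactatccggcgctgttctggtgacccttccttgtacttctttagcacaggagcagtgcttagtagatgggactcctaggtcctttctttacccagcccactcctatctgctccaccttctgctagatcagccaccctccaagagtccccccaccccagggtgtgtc
A promoter was listed for 55 of the 80 symbols, in 59 entries. Those 55 include 6 of the 8 members with an adjusted p under 0.05. *Fn1*, *Lama1* and *Lamc1* had no entry and were not searched. CACGTG, which reads the same on both strands, was in 0 of these 59 windows, against 6.02% of all 32851 promoters of the same length. The related CACGTT, searched on both strands, was in 3 of the 59, those of *Col4a4*, *Col6a6* and *Itga9*, against 3.85% of all promoters. CANNTG, which also covers CACGTG, was in 61.0% of the 59 windows and in 66.2% of all. The *Itga9* window belongs to a start 105 kb inside the feature measured here and is not shown.

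Levels are FPKM (fragments scaled to the length of the transcript and the size of the library), which are per length and so can be compared between genes. They ranged from 0 to over 100 among the members: 17 had a mean of at least 10 FPKM over the 4 libraries, 29 had a mean under 0.1, and 16 were listed at 0 in some library. A mean of at least 0.5 FPKM was needed for the test, which left 35 members (21 matrix genes, 13 integrin subunits and *Col4a3bp*) and 46 below it. By mean level the most abundant were *Col18a1*, *Fn1*, *Lamc1*, *Itgb1*, *Nid2* and *Sparc*. KO was compared with WT on log2(FPKM + 0.1) with limma, and each adjusted p is from that fit over all 12990 tested features. "Rose" and "fell" are used for an adjusted p under 0.05, and "called" where the change was also over 2-fold.

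**Figure D1:**
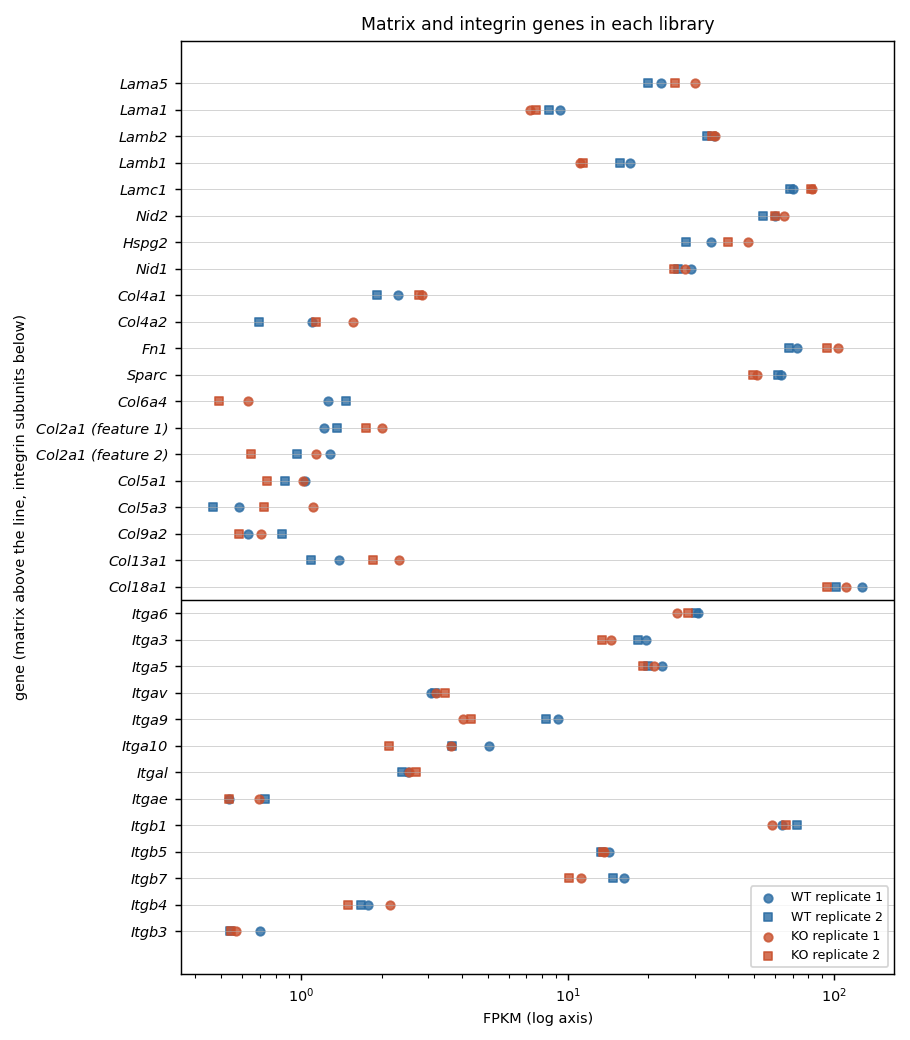
FPKM of 33 tested matrix and integrin genes on a log axis, with 1 point for each library, blue for WT and red for KO, circles for replicate 1 and squares for replicate 2. *Itga9* and *Col6a4* show the widest gap between genotypes, and most other genes lie close together in the 4 libraries.

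The KO and WT libraries expressed a similar set of matrix and receptor genes, and no member was called higher in KO. *Itga9* and *Col6a4* were called lower, which is 2 of the 35 tested members, where 4.14% of all tested features were called and 1.42% were called down-regulated. *Fn1* rose and 7 members fell, among them *Itga9*, *Col6a4*, *Lamb1*, *Itgb7*, *Itga3* and *Sparc*. These 8 are 22.9% of the tested members, against 12.5% of all tested features, with 6.85% of all features higher and 5.60% lower at this adjusted p. In 21 of the 35 members the KO and WT libraries did not overlap, close to the 58.8% of all tested features. Both KO values were above both WT values in 11 of them, against 27.0% of all tested features, and below in 10, against 31.7%. The median log2 fold change was -0.06 over the members and -0.02 over all tested features.

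**Figure D2:**
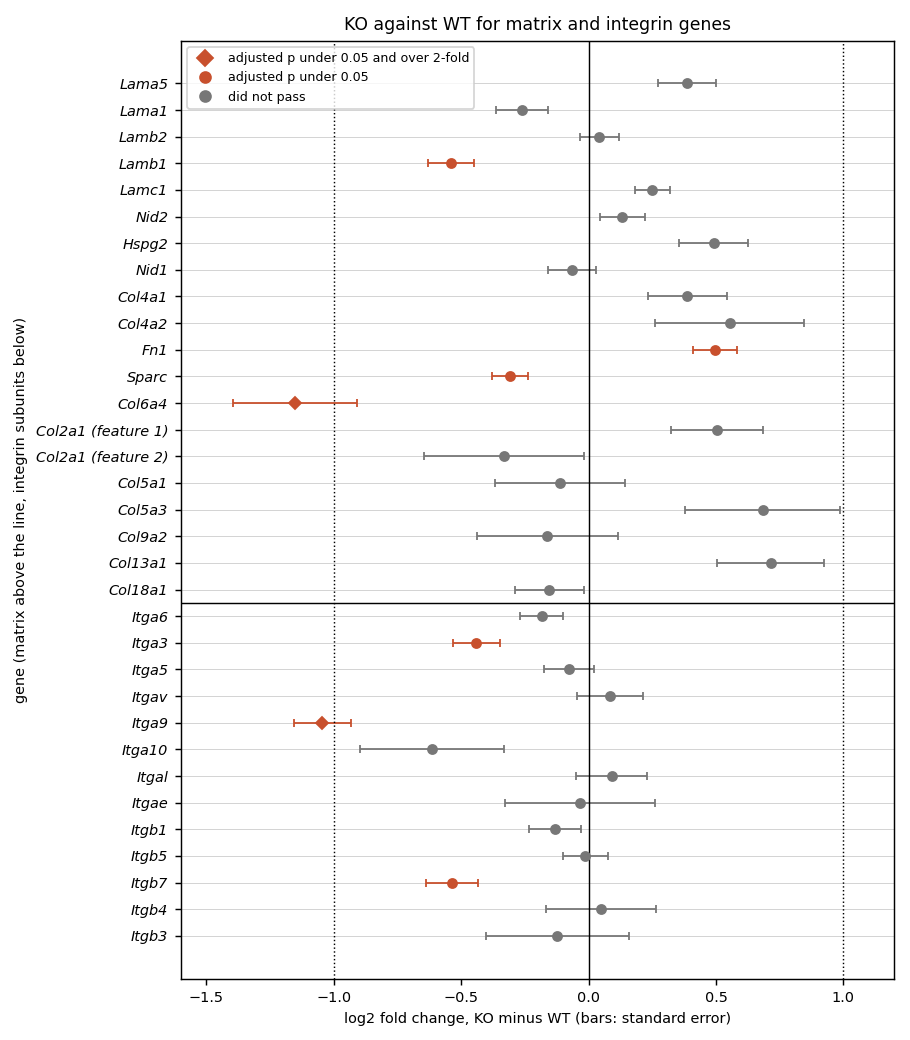
Log2 fold change of KO minus WT for 33 tested matrix and integrin genes, with bars for the standard error, red for an adjusted p under 0.05 and diamonds for a change over 2-fold, which the dotted lines mark. *Itga9* (-1.05) and *Col6a4* (-1.15) lie beyond the lower line, and *Fn1* is the red point above 0.

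Among the laminin chains, *Lamb1* and *Lama1* were lower in both KO libraries and *Lama5* and *Lamc1* higher, and of these 4 *Lamb1* passed the test. *Lamb1*, the beta chain of the earliest embryonic laminins, had 17.2 and 15.8 FPKM in WT and 11.1 and 11.5 in KO. It fell by 0.54 (SE 0.09, adjusted p = 0.0198), and the genotypes did not overlap. The adjusted p stayed under 0.05 in all 15 alternative settings. In 4 of these 15 a library is left out, which leaves 1 library in its group, assumed to vary like the other genotype.

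*Lama1*, the alpha chain that joins *Lamb1* and *Lamc1* products in laminin-111, had 9.32 and 8.50 FPKM in WT and 7.24 and 7.60 in KO, a log2 difference of -0.26 (SE 0.10) that did not pass (adjusted p = 0.160). *Lama5*, the alpha chain of laminin-511, had 22.4 and 20.02 FPKM in WT and 30.2 and 25.4 in KO, a log2 difference of 0.39 (SE 0.11, adjusted p = 0.0865). *Lamc1*, the common gamma chain, had 69.9 and 68.2 FPKM in WT and 82.5 and 81.8 in KO, a log2 difference of 0.25 (SE 0.07, adjusted p = 0.0723). In these 3 genes the groups did not overlap, but the test was not passed. *Lamb2* had 35.3 and 33.3 FPKM in WT and 35.7 and 34.9 in KO, which overlap. Its value is uncertain because the feature is merged with *Usp19*. A further 5 laminin chains, *Lama2*, *Lama3*, *Lama4*, *Lamb3* and *Lamc3*, stayed at or under 0.316 FPKM in every library.

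Expressed as shares of the summed FPKM of their class, the alpha and beta chains can be compared within each library, without a test. *Lama1* made up 29.2% and 29.5% of the alpha chains in WT and 19.2% and 22.9% in KO. *Lamb1* made up 32.5% and 31.9% of the beta chains in WT and 23.7% and 24.6% in KO. Most of the beta total is the *Lamb2* feature, which is merged with *Usp19* and 2.08 times as long as the gene, so the beta shares rest on that uncertain value. The ratio of *Lama5* to *Lama1* was 2.40 and 2.35 in WT and 4.17 and 3.34 in KO. With 2 libraries against 2, the smallest two-sided p that an exact permutation test could give is 0.333, so no p is given for the shares.

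**Figure D3:**
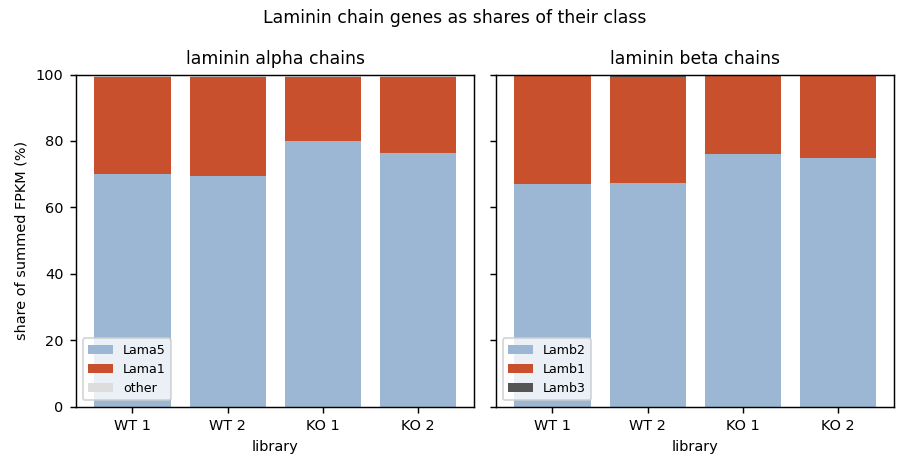
Each bar is 1 library and shows the share (%) of the summed FPKM of the laminin alpha or beta chains that each gene takes, with *Lama5* and *Lamb2* in blue and *Lama1* and *Lamb1* in red. The red share is smaller in both KO libraries than in both WT libraries in both classes, and the beta shares rest on the merged *Lamb2* feature.

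The proteins that tie the laminin network to type IV collagen did not change by the test. *Nid2* had 60.0 and 54.3 FPKM in WT and 65.2 and 60.0 in KO (log2 difference 0.13, SE 0.09, adjusted p = 0.372). That value is uncertain, since the feature shares its coordinates with another and holds the coding gene *Rtraf*. *Nid1* had 29.0 and 26.1 FPKM in WT and 27.5 and 25.0 in KO (log2 difference -0.06, SE 0.10, adjusted p = 0.689). *Hspg2*, which encodes perlecan, had 34.5 and 27.9 FPKM in WT and 47.5 and 39.9 in KO (log2 difference 0.49, SE 0.14, adjusted p = 0.0740). The nidogens overlapped between genotypes, and *Hspg2* was higher in both KO libraries without passing. The type IV collagen genes themselves were low: *Col4a1* had 2.31 and 1.93 FPKM in WT and 2.83 and 2.76 in KO (log2 difference 0.39, SE 0.16, adjusted p = 0.167). *Col4a2*, which lies head to head with it on chromosome 8, had 1.10 and 0.693 FPKM in WT and 1.56 and 1.13 in KO (log2 difference 0.55, SE 0.29, adjusted p = 0.270). The other 4 type IV chains were under 0.04 FPKM in every library.

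*Fn1*, which encodes fibronectin, the ligand of integrins that read the RGD peptide, was the member that rose. It had 72.9 and 67.6 FPKM in WT and 103.8 and 94.4 in KO, so that both KO values lay above both WT values. The log2 fold change was 0.50 (SE 0.09, adjusted p = 0.0206). With n = 2, the WT mean was 70.2 ± 3.75 FPKM (SD) and the KO mean 99.1 ± 6.69, a ratio of 1.41. Over the alternatives its adjusted p ran from 0.0025 to 0.0659, the highest with no trend in the variance. *Sparc*, a matricellular protein that binds collagen, had 63.5 and 61.7 FPKM in WT and 51.3 and 49.8 in KO. It fell by 0.31 (SE 0.07, adjusted p = 0.0459). Of the 8 changes this had the highest adjusted p, and it was kept in 7 of 15 alternative settings. When any 1 of the 4 libraries was left out, its log2 difference stayed between -0.33 and -0.29, with an adjusted p from 0.114 to 0.172 in fits whose spread comes from the other genotype alone. *Vtn*, which encodes vitronectin, was under 0.22 FPKM in every library.

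Collagen RNA in these cells was largely *Col18a1*, the source of endostatin, which made up between 87.1% and 90.3% of the summed collagen FPKM. It had 127 and 102 FPKM in WT and 111 and 94.3 in KO, which overlap (log2 difference -0.15, SE 0.13, adjusted p = 0.495). Of the 42 collagen features 10 were tested and 1 changed, *Col6a4*. It encodes an alpha chain of collagen VI, and the feature runs from 105990201 to 106096691 on chromosome 9, on the minus strand. It had 1.26 and 1.47 FPKM in WT and 0.630 and 0.490 in KO. With n = 2, the WT mean was 1.36 ± 0.14 FPKM (SD) and the KO mean 0.560 ± 0.099, and the log2 fold change was -1.15 (SE 0.24, adjusted p = 0.0352). The genotypes did not overlap. Over the alternatives the adjusted p ran from 0.0130 to 0.0792, the highest without KO replicate 2, and it was 0.0585 without WT replicate 2. With a pseudocount of 1 the change was under 2-fold (log2 -0.60).

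*Col6a5* and *Col6a6* lie beside *Col6a4* on the same strand and are of the same subgroup of collagen VI chains. Both were below the level for the test, and both were looked at after the value of *Col6a4* was seen. *Col6a5* had 0.316 and 0.329 FPKM in WT and 0.111 and 0.116 in KO. *Col6a6* had 0.0656 and 0.05002 FPKM in WT and 0.0299 and 0.0322 in KO. In all 3 genes both KO libraries lay below both WT libraries, as in 26.2% of all features, filtered or not. With no filter on low values, the adjusted p was 0.0832 for *Col6a5*, 0.0704 for *Col6a4* and 0.476 for *Col6a6*, so none of the 3 passed in that fit. The flanking genes did not show this: *Pik3r4*, 1.8 kb beyond *Col6a6*, had a log2 difference of 0.07 (SE 0.08, adjusted p = 0.609), and *Glyctk*, 56.2 kb beyond *Col6a4*, had 0.27 (SE 0.19, adjusted p = 0.392). *Col6a1* and *Col6a2*, whose chains form the common collagen VI trimer with that of *Col6a3*, were at or under 0.104 FPKM in every library, and *Col6a3* was under 0.01.

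**Figure D4:**
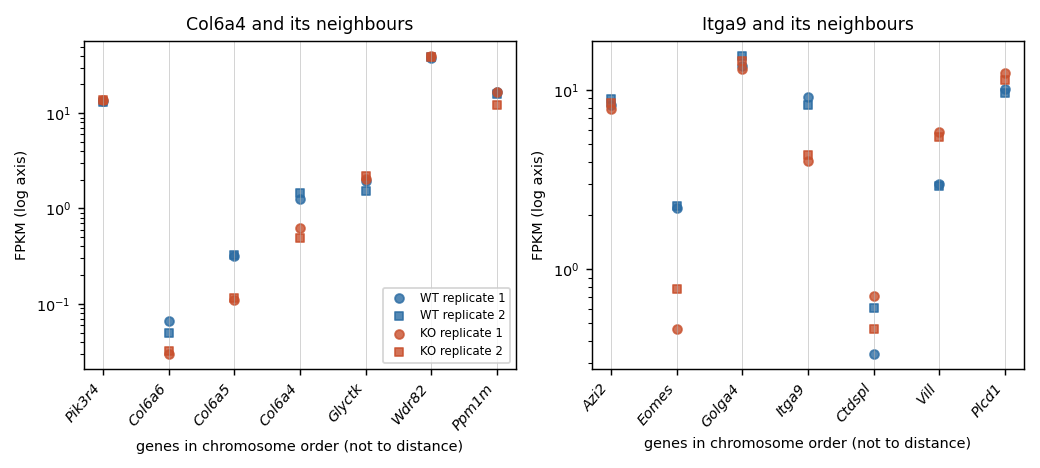
FPKM on a log axis for *Col6a4* (left) and *Itga9* (right) and 3 features on either side in chromosome order, with 1 point for each library, blue for WT and red for KO. *Col6a6*, *Col6a5* and *Col6a4* are lower in both KO libraries while *Pik3r4* and *Wdr82* are at the same level, and beside *Itga9* only *Eomes* shares its direction with both KO libraries below both WT libraries. *Vill* and *Plcd1*, on the other side of *Itga9*, are higher in both KO libraries.

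The other tested collagens, those of type IV apart, were between 0.4 and 2.4 FPKM and did not pass. *Col13a1*, a transmembrane collagen of cell contacts, had 1.38 and 1.09 FPKM in WT and 2.32 and 1.85 in KO (log2 difference 0.71, SE 0.21, adjusted p = 0.0844). *Col5a3*, a fibrillar collagen, had 0.584 and 0.467 FPKM in WT and 1.11 and 0.726 in KO (log2 difference 0.68, SE 0.30, adjusted p = 0.198). In both genes the KO values lay above the WT values, by more than the standard error but not past the threshold. The 2 features of *Col2a1*, the cartilage collagen, disagreed: 1 had 1.22 and 1.36 FPKM in WT and 2.00 and 1.74 in KO, and the other had 1.28 and 0.961 in WT and 1.13 and 0.649 in KO. *Col5a1* (log2 difference -0.11, SE 0.25, adjusted p = 0.800) and *Col9a2* (-0.16, SE 0.28, adjusted p = 0.732) overlapped between genotypes. Of the 32 collagen features below the level for the test, none reached 0.7 FPKM in any library. *Col1a1*, *Col1a2* and *Col3a1*, the main collagens of connective tissue, were at or under 0.217 FPKM. *Col26a1*, with a mean of 0.290 FPKM and looked at after its values were seen, had 0.537 and 0.450 FPKM in WT and 0.130 and 0.0443 in KO, and with no filter its adjusted p was 0.0575. Other low collagens went the other way, such as *Col11a1* (0.0916 and 0.113 FPKM in WT, 0.250 and 0.282 in KO) and *Col22a1* (0.0477 and 0.0739, then 0.171 and 0.151). Of all 42 collagen features, both KO values lay above both WT values in 13 and below in 7. The shares of all features were 25.1% and 26.2%.

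Among the 13 tested integrin subunits, *Itga9*, *Itga3* and *Itgb7* fell and no subunit rose. Of all tested features, 5.60% fell and 6.85% rose. *Itga9* encodes the alpha-9 subunit, which pairs with beta-1 and binds tenascin, osteopontin and a form of fibronectin. The feature runs from 118606709 to 118901003 on the plus strand of chromosome 9. It had 9.17 and 8.31 FPKM in WT and 4.03 and 4.32 in KO, with a clear gap between the genotypes. With n = 2, the WT mean was 8.74 ± 0.61 FPKM (SD) and the KO mean 4.18 ± 0.20, and the log2 fold change was -1.05 (SE 0.11, adjusted p = 0.0063). Its adjusted p stayed under 0.05 in all 15 alternatives, and the change dropped below 2-fold with a pseudocount of 1 (log2 -0.91), without WT replicate 1 (log2 -0.98) and without KO replicate 1 (log2 -0.997). It made up 9.71% and 9.40% of the integrin alpha FPKM in WT and 5.27% and 5.74% in KO. Between 32.6% and 37.5% of that alpha total is the *Itga6* feature, whose value is uncertain, so the share of *Itga9* rests partly on it. The next gene upstream, *Golga4*, 24.2 kb away, had a log2 difference of -0.07 (SE 0.11, adjusted p = 0.690), whereas *Eomes*, a T-box factor of early mesoderm and endoderm 120 kb away, was called lower (log2 -1.73, SE 0.27, adjusted p = 0.0154). On the other side, *Ctdspl*, 25.5 kb away, had a log2 difference of 0.28 (SE 0.38, adjusted p = 0.671). *Vill*, 151.7 kb away, went the other way and rose (log2 0.91, SE 0.12, adjusted p = 0.0098). These neighbours were looked at after their values were seen.

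Of the laminin receptors, *Itga3* had 19.7 and 18.4 FPKM in WT and 14.6 and 13.5 in KO. It fell by 0.44 (SE 0.09, adjusted p = 0.0339), with no overlap, and this was kept in 10 of 15 alternatives but lost without WT replicate 1 (adjusted p = 0.0893) and without KO replicate 2 (adjusted p = 0.102). *Itga6*, the other abundant laminin-binding subunit, had 30.8 and 30.4 FPKM in WT and 25.6 and 28.3 in KO (log2 difference -0.18, SE 0.08, adjusted p = 0.210). That value is uncertain, since its feature is 4.57 times as long as the annotated gene and shares its coordinates with features of neighbouring genes. *Itga7* stayed under 0.3 FPKM. Summed over the 3 laminin-binding subunits, the level was 50.7 and 49.1 FPKM in WT and 40.5 and 42.0 in KO.

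The subunits that bind the RGD peptide of fibronectin and vitronectin did not pass. *Itga5*, the alpha chain of the classical fibronectin receptor, had 22.5 and 20.04 FPKM in WT and 21.1 and 19.2 in KO (log2 difference -0.08, SE 0.10, adjusted p = 0.649). *Itgav* had 3.08 and 3.18 FPKM in WT and 3.19 and 3.46 in KO (log2 difference 0.08, SE 0.13, adjusted p = 0.704). Thus the *Fn1* RNA rose while the difference in *Itga5* stayed within its standard error. *Itga8* was at most 0.510 FPKM and *Itga2b* at most 0.126. *Itga10*, a collagen-binding subunit, had 5.07 and 3.68 FPKM in WT and 3.64 and 2.13 in KO (log2 difference -0.61, SE 0.28, adjusted p = 0.211). Its replicates differed among themselves almost as much as the genotypes did. *Itga1* and *Itga11*, the other collagen-binding subunits listed, were under 0.08 FPKM.

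*Itgb1*, the beta subunit shared by most of these alpha subunits, had 64.0 and 72.9 FPKM in WT and 58.6 and 66.2 in KO, which overlap (log2 difference -0.13, SE 0.10, adjusted p = 0.438). It made up between 66.0% and 72.0% of the integrin beta FPKM in the 4 libraries. *Itgb5* had 14.3 and 13.3 FPKM in WT and 13.7 and 13.6 in KO (log2 difference -0.01, SE 0.09, adjusted p = 0.932). *Itgb7* had 16.2 and 14.8 FPKM in WT and 11.2 and 10.2 in KO. It fell by 0.54 (SE 0.10, adjusted p = 0.0262), both KO values lay below both WT values, and this was kept in 12 of 15 alternatives, with the highest adjusted p, 0.0616, without KO replicate 2. The beta-7 subunit is known from lymphocytes, where it pairs with alpha-4 or alpha-E. *Itga4* was at most 0.105 FPKM and *Itgae* at most 0.729, so *Itgb7* RNA was at least 10 times above that of either partner. The partner values are uncertain, since both features share their coordinates with another and hold a further coding gene. That of *Itga4* is 2.23 times as long as the gene. *Itgal* (log2 difference 0.09, SE 0.14, adjusted p = 0.704), *Itgb4* (0.05, SE 0.22, adjusted p = 0.900), *Itgb3* (-0.12, SE 0.28, adjusted p = 0.804) and *Itgae* (-0.03, SE 0.29, adjusted p = 0.953) did not pass. The *Itgb4* feature also shares its coordinates with another and holds the coding gene *Galk1*, so its value is uncertain. *Itgam*, a leukocyte subunit below the filter, had 0.348 and 0.419 FPKM in WT and 0.155 and 0.220 in KO.

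Summed FPKM of all 21 integrin subunits was 191.4 and 191.6 in WT and 162.9 and 167.3 in KO, and that of all 59 matrix genes was 563 and 506 in WT and 595 and 543 in KO. The receptor sums did not overlap between genotypes and the matrix sums did. These sums include uncertain features, such as *Itga6* (receptors) and *Nid2* and the merged *Lamb2* (matrix). The median log2 fold change was -0.12 over the 13 tested integrins and 0.04 over the 21 tested matrix genes, beside -0.02 over all tested features. Libraries are of whole cultures, so fewer cells of a type and less RNA per cell cannot be told apart.

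Of the wider pathway, 127 genes were listed in 5 groups, 118 were found and 83 tested. Here 7 genes were called higher and 0 lower, where 2.72% of all tested features were called up-regulated. By adjusted p alone, 18 rose and 1 fell, where 6.85% of all tested features rose and 5.60% fell, which is the background for the counts of each list as well. The lists were chosen with earlier results of these data known. Their counts therefore describe these genes and do not test a list against the background. The group of other basement membrane and matrix proteins stood highest, with 7 of 16 tested genes that rose, 0 that fell and a median log2 fold change of 0.57. *Tgfbi*, a secreted protein that binds collagen and integrins, had 1.11 and 1.15 FPKM in WT and 7.58 and 6.47 in KO (log2 fold change 2.53, SE 0.15, adjusted p = 0.0017). *Smoc1*, a SPARC relative of basement membranes, had 0.505 and 0.511 FPKM in WT and 2.45 and 2.56 in KO (log2 fold change 2.101, SE 0.19, adjusted p = 0.0047). *Frem2*, a component of embryonic basement membranes, had 0.133 and 0.161 FPKM in WT and 1.06 and 0.990 in KO (log2 fold change 2.19, SE 0.31, adjusted p = 0.0120). In these 3 genes both KO values lay several times above both WT values. The mean of *Frem2* reached 0.5 FPKM only through KO, as did that of *Tll1* below, so the filter favoured a higher call for both. At a mean of at least 1 FPKM, which leaves both out, 5 companion genes were called higher. That filter has the same limit: *Smoc1*, *Lims2* and *Mmp2* are among the 5, with WT means of 0.508, 0.717 and 0.946 FPKM. Their means reached 1 FPKM only through KO. *Spp1*, which encodes osteopontin, a ligand of alpha-9 and RGD-binding integrins, was the most abundant of the group, with 164 and 181 FPKM in WT and 266 and 292 in KO (log2 fold change 0.69, SE 0.09, adjusted p = 0.0099). *Ctgf* (log2 fold change 1.00, SE 0.10, adjusted p = 0.0056), *Cyr61* (0.95, SE 0.14, adjusted p = 0.0151) and *Fbln1* (0.49, SE 0.11, adjusted p = 0.0420) also rose.

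Of 20 tested biosynthesis genes 3 rose and 1 fell, with a median of -0.05. *P4hb*, the most abundant, encodes the beta subunit of prolyl 4-hydroxylase and fell by 0.34 (SE 0.07, adjusted p = 0.0364). *Pcolce*, an enhancer of procollagen cleavage, had 80.5 and 75.9 FPKM in WT and 129.8 and 113.7 in KO (log2 fold change 0.64, SE 0.09, adjusted p = 0.0128). *Serpinh1*, the collagen chaperone, had 5.19 and 4.99 FPKM in WT and 8.47 and 8.68 in KO (log2 fold change 0.74, SE 0.10, adjusted p = 0.0108). Both rose without overlap. *Tll1*, a procollagen C-proteinase, was called (0.128 and 0.215 FPKM in WT, 0.773 and 1.12 in KO, log2 fold change 1.95, SE 0.36, adjusted p = 0.0258). Its mean reached the filter of 0.5 FPKM only through KO.

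Of 13 tested proteases and inhibitors 2 rose and 0 fell, with a median of 0.02. *Mmp2*, a gelatinase that cleaves collagen IV, was called, with 1.04 and 0.856 FPKM in WT and 1.97 and 2.27 in KO (log2 fold change 1.09, SE 0.20, adjusted p = 0.0238). *Plaur*, the urokinase receptor and the most abundant of the group, rose from 32.3 and 28.8 FPKM to 59.1 and 46.8 (log2 fold change 0.78, SE 0.13, adjusted p = 0.0190). Of 12 tested other matrix receptors 3 rose and 0 fell, with a median of 0.23. These were the heparan sulphate proteoglycans *Sdc4* (log2 fold change 0.68, SE 0.13, adjusted p = 0.0245) and *Gpc3* (0.44, SE 0.10, adjusted p = 0.0467) and the tetraspanin *Cd151* (0.31, SE 0.07, adjusted p = 0.0486), which associates with the laminin-binding integrins. *Rpsa*, the most abundant, a ribosomal protein also known as a laminin receptor, had a log2 difference of -0.11 (SE 0.08, adjusted p = 0.421).

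Inside the cell, 3 of 22 tested focal adhesion genes rose and 0 fell, with a median of 0.06. *Parvb*, the beta-parvin that joins integrin-linked kinase to actin, had 42.9 and 37.8 FPKM in WT and 88.9 and 80.4 in KO (log2 fold change 1.07, SE 0.10, adjusted p = 0.0047). *Lims2*, of the PINCH proteins of the same complex, was called (log2 fold change 1.74, SE 0.23, adjusted p = 0.0101), from a feature that shares its coordinates with another. *Kank2*, which binds talin, rose by less than 2-fold (log2 fold change 0.51, SE 0.11, adjusted p = 0.0367). The core adaptors *Ilk* (0.20, SE 0.10, adjusted p = 0.248), *Tln1* (0.32, SE 0.09, adjusted p = 0.0749), *Vcl* (-0.07, SE 0.08, adjusted p = 0.617) and *Ptk2* (-0.18, SE 0.11, adjusted p = 0.331) did not pass, and neither did *Actn4*, the most abundant (-0.14, SE 0.08, adjusted p = 0.335).

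**Figure D5:**
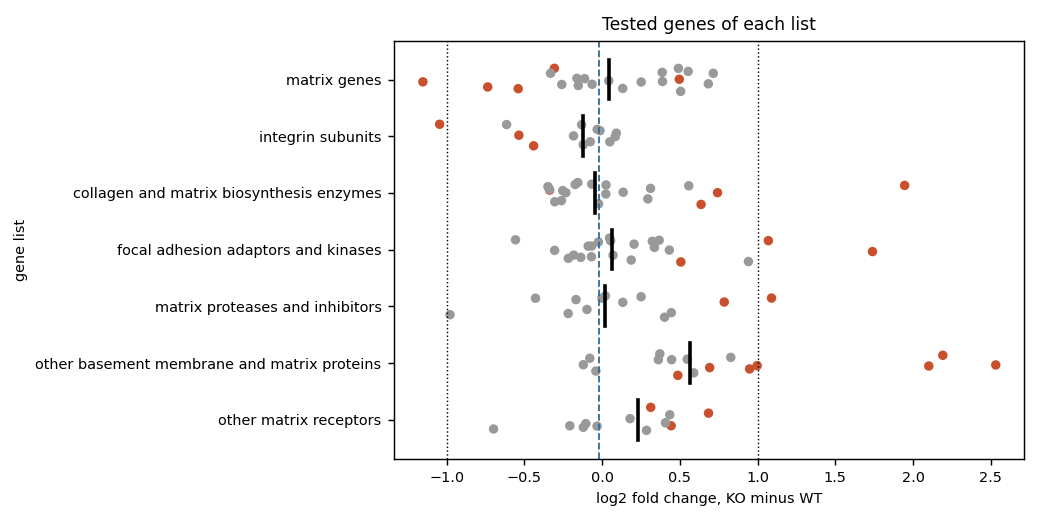
Log2 fold change of KO minus WT for the tested genes of each list, with 1 point for each gene, red for an adjusted p under 0.05, a black bar for the median of the list and a dashed line for the median of all tested features. The medians are 0.04 for matrix genes and -0.12 for integrin subunits, and 0.57 for the other basement membrane and matrix proteins.

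The cells' identity was checked with marker lists. All 8 pluripotency genes were found, with *Pou5f1* at 1619.9 and 1457 FPKM in WT and 1589 and 1389 in KO, and *Klf4* and *Tdgf1* fell (log2 -0.46, adjusted p = 0.0177, and log2 -0.36, adjusted p = 0.0322). Of their 9 features, all tested, 5 had both KO values below both WT values, against 31.7% of all tested features. In 1 both KO values lay above, against 27.0%. All 11 markers of primitive and parietal endoderm, cells that make much *Lama1*, *Lamb1*, *Sparc* and *Col4a1*, were found, and 10 of them were under 1 FPKM in every library. Their sum was 8.21 and 8.14 FPKM in WT and 5.83 and 6.42 in KO, most of it *Lrp2*, which fell by 0.82 (adjusted p = 0.0175). By direction, 7 of the 11, at low levels, had both KO values above both WT values, among them *Sox7* and *Dab2*, against 25.1% of all features, and 2 had both below, against 26.2%. Their part in the laminin result was not tested. Of 8 fibroblast markers 4 were found, with a sum of 2.23 and 2.07 FPKM in WT and 3.43 and 2.78 in KO, and *Dcn* was listed at 0 in 3 libraries. *Arntl* RNA, which a frameshift need not lower, had 6.05 and 6.29 FPKM in WT and 5.95 and 5.92 in KO (log2 difference -0.06, adjusted p = 0.750), so the RNA level does not check the genotype labels. Features without a gene symbol took 26.8% and 37.3% of the summed FPKM in WT and 19.0% and 18.1% in KO. When FPKM were scaled to the features with a symbol, *Itga3* and *Sparc* no longer passed, *Hspg2* and *Lamc1* did, and the change of *Itga9* dropped just below 2-fold (log2 -0.97).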

How the data were processed

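Gene expression was measured by RNA sequencing of ribosome-depleted total RNA from 2 WT and 2 *Bmal1* KO ESC libraries. According to the submitters' processing notes, the authors aligned reads to GRCm38 (mm10) with TopHat2 2.1.1 and Bowtie2 2.3.0 and estimated expression with Cufflinks 2.2.1. The deposited values are FPKM for 19645 features in each library, with no read counts. Depth is therefore not given. Single-transcript genes pile up at 1 value per kilobase, from which 0.5 FPKM is about 10.2 to 11.6 fragments per kilobase. Feature starts count from 0, so 1 was added.

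FPKM were compared as log2 after a pseudocount of 0.1 for features with a mean of at least 0.5, with limma 3.58.1 (R 4.3.3), a variance trend and Benjamini-Hochberg adjustment over 12990 features. The script was tested on simulated data. A call needs an adjusted p under 0.05 and a change over 2-fold. Fold changes on this scale understate those of low genes. Tables and figures used Python 3.11.15, numpy 2.4.6, pandas 2.3.3 and matplotlib 3.10.9. Members and lists were chosen with earlier results of these data known. A member that counts and medians include is not reported here by name. Otherwise, the genes named are all members with an adjusted p under 0.05, the 2 most abundant tested members of each role, called companion genes, the most abundant of each companion list and *Arntl*; other members and list genes that are named were chosen after their values were seen. Tried were 11 alternatives and leaving out each of 4 libraries. Promoter sequences were read from RefSeq (GRCm38.p6).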

Additional observations from a re-analysis of the deposited data

How the results depend on the processing

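Over 43 results and 15 alternative settings, 570 of 635 gene values kept their direction and side of the threshold, 31 lost the threshold, 19 gained it and 15 changed sign. With a pseudocount of 1, all features called were 146 up and 85 down (against 353 and 185), 0 members were called lower (against 2) and 4 companion genes higher (against 7). With no filter on low values, 1 member was called lower, 3 members fell (against 7) and the integrin median was -0.0324 (against -0.12). At a mean of at least 1 FPKM, which leaves out *Col6a4*, 1 member was called lower and the matrix median was 0.13 (against 0.04). Scaling to features with a symbol gave 1 member called lower and 3 members that rose (against 1), and leaving out features without a symbol also gave 3 that rose. With no trend in the variance, 0 members rose and 4 fell. The cause was not tested for these changes.

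Leaving out 1 library leaves 1 in its group, which is assumed to vary like the other genotype, so these fits say little about stability. In them, features called lower numbered 257 to 323 (against 185, the fewest without KO replicate 2 and the most without WT replicate 1), members called lower 1 to 1, members that rose 1 to 4 (4 without WT replicate 1, 3 without KO replicate 2), members that fell 3 to 7 (3 without KO replicate 2), companion genes called higher 4 to 8 (4 without KO replicate 2) and lower 0 to 1 (1 without WT replicate 2). Small differences changed sign, none with a passed test. *Itgb5* was 0.0077 after quantile normalization, and after scaling to features with a symbol *Itgb5* was 0.0589, *Itgae* 0.0306, *Col4a3bp* 0.0541 and *Arntl* 0.0166. With 1 library left out, values ran from -0.31 to 0.0065 for *Col18a1*, -0.16 to 0.0072 for *Itga5*, -0.066 to 0.0382 for *Itgb5*, -0.22 to 0.16 for *Itgae*, -0.12 to 0.0833 for *Col4a3bp*, -0.35 to 0.0236 for *Col9a2*, -0.0015 to 0.0858 for *Lamb2* and -0.69 to 0.0285 for the second *Col2a1* feature.

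The genotypes share replicate numbers, but nothing says that equal numbers were processed together. Deviations of same-numbered libraries correlated at Pearson r = 0.0712 and Spearman rho = 0.387 across 12990 genes, and at 0.407 and 0.426 over the 35 tested members. Genes are not independent replicates. Ratios of low FPKM piled up between same-numbered libraries (104 and 92 features in the fullest bin, against 24 to 28 for other pairs), which hints at a link that no label states. With 2 pairs and no label, the numbers were not taken as pairs. With the replicate block, 6 members rose and 10 fell, and 2 were still called lower. The 8 added were *Lama5*, *Lamc1*, *Hspg2*, *Nid2*, *Col13a1*, *Col18a1*, *Itga10* and *Itgb1*, and 4052 features passed in all (against 1618). Low levels limit the collagens most: 46 of 81 members were too low to test.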
